A study of Mus musculus with 8 samples.

Results

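The cytochrome P450 genes are described here without 4 genes of bile acid synthesis, Cyp7a1, Cyp7b1, Cyp8b1 and Cyp27a1. Cyp2c70, which makes the muricholic acids of mice, was kept. Of 24982 genes in the count table, 105 rows matched the P450 name pattern. After removal of those 4 and of 3 symbols ending in -ps, 98 members remained. The pseudogene symbol Cyp4b1-ps2 and Cyp4x1os matched the pattern and were kept, both with under 20 counts. In the 8 libraries together 12 members had 0 counts, 13 had 1 to 19 and 73 had at least 20. The members just under that limit were Cyp4x1 with 9 counts and Cyp2ab1 with 11, and those just over it were Cyp27b1 with 29 and Cyp2c69 with 30. The 73 belonged to 28 subfamilies. Of them 65 passed the filter on low counts and were tested, and 8 were too low in counts (Cyp27b1, Cyp2b9, Cyp2c40, Cyp2c69, Cyp3a16, Cyp3a41a, Cyp3a57 and Cyp4f39). The deposited FPKM gave means in the wild-type controls of 14.3 for Cyp3a41a, 7.52 for Cyp2c40, 3.33 for Cyp3a16 and 3.24 for Cyp2c69. The levels of these genes thus depend on the measure. The means of the others were 0.0151 to 0.809. Members in the counts of calls are the 65 tested, chosen by counts and not by change. Counts of calls from other settings are over those of the 73 that the setting tested.

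Cytochrome P450 enzymes are heme proteins of the endoplasmic reticulum and of mitochondria that insert oxygen into drugs, fatty acids, steroids, retinoids and vitamin D, with electrons from P450 reductase or from ferredoxin. Hepatocytes hold most of the body's P450, and many of these enzymes are concentrated around the central vein. Their genes answer to nuclear receptors such as CAR, PXR and PPARA, to the aryl hydrocarbon receptor AhR, and to the sex-dependent pattern of growth hormone. Bile duct ligation (BDL) blocks bile flow and leads to cholestasis and fibrosis.

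All mice carried LysM-Cre, which is expressed in myeloid cells, and the RiboTag allele, which tags ribosomes with an HA epitope where Cre is active. The design text describes isolation of RNA bound to the tagged ribosomes, while the labels give liver as the tissue, myeloid cells as the cell type and total RNA as the molecule. There were 4 groups of 2 libraries. They were LysM-Cre:Ribotag controls and the same genotype 17 days after BDL (here WT), and LysM-Cre:Hmoxflfl:Ribotag controls and that genotype 17 days after BDL (here deleted, as labelled). In the second genotype Hmox1, which encodes the heme-degrading enzyme heme oxygenase-1 (HO-1), is floxed. The labels give no age, strain, sex or batch and do not say that the 2 libraries of a group came from separate animals, so each p reflects the variation among these libraries only, which may be technical. Libraries are numbered in deposit order and a number links no libraries across groups.

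Library totals ranged from 9.81 to 40.9 M counts (M, mega), of which 10.3 to 66.8% were the ribosomal RNA precursor RN45S, which left 3.25 to 31.6 M. The smallest remainder was that of deleted BDL 2. Levels are given as CPM, counts per M of the TMM-scaled library size. Hmox1 read 6.22 and 7.46 CPM in the WT controls, 26.05 and 23.97 after ligation, 22.5 and 29.9 in the deleted controls and 72.3 and 95.5 after ligation, and it was higher in the libraries labelled HO-1 deleted (log2 fold change 1.94 ± 0.24, adjusted p = 0.00434 in controls; 1.74 ± 0.24, adjusted p = 0.0191 after BDL, edgeR). The first of these calls was lost without WT control 1 or deleted control 2 (adjusted p = 0.0544 to 0.141) and the second was lost without WT BDL 2, deleted BDL 1 or deleted BDL 2 (adjusted p = 0.0623 to 0.141). The gene total thus went against the label, and it need not show the loss of part of a gene. Lyz2, the gene that carries the LysM-Cre insertion, read 11.6 and 8.04 CPM in the WT controls, 27.3 and 13.2 after ligation, 0.128 and 0.212 in the deleted controls and 0.155 and 0.665 after ligation. WT BDL 1 stood apart in sex: Xist was at 22821 counts there and at 0 to 8 in the others, and the Y-linked Ddx3y was at 0 there only. The 9 hepatocyte markers found in the table, led by albumin, took 4.22 to 7.16% of the counts other than RN45S, against 0.043 to 0.123% for 8 Kupffer cell markers and 0.00176 to 0.0131% for 7 monocyte and macrophage markers. None of the 9 hepatocyte and 8 Kupffer cell markers was at 0 in any library. Hepatocyte markers were thus far above the myeloid ones in libraries labelled as myeloid cells. In such bulk samples fewer cells of a type and less RNA per cell cannot be told apart.

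Ligation was followed by lower levels of many P450 genes in both genotypes. In WT, 20 of the 65 tested members fell and 6 rose (40% of members, against a background of 18.4% of all 14147 genes tested). By direction this was 30.8% lower against 6.59% of all genes, and 9.23% higher against 11.8%. In the deleted libraries 24 members fell and 4 rose (43.1% against 27.5%), with 36.9% lower against 12.4% of all genes and 6.15% higher against 15.1%. These shares of all genes also stand beside the counts by subfamily and by list below. A few calls within a small list are not shown to exceed them. The median log2 fold change of the members was -0.69 in WT and -0.83 in the deleted libraries, where the medians of all genes were 0.02 and -0.03. Members were called from the two-sided quasi-likelihood test of edgeR at a Benjamini-Hochberg adjusted p below 0.05 over all genes tested, and fold changes are log2 BDL over control with the standard error.

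The same 15 members fell in both genotypes: Cyp1a2, Cyp2c29, Cyp2c67, Cyp2d9, Cyp2d11, Cyp2d13, Cyp2d22, Cyp2d40, Cyp2e1, Cyp2f2, Cyp2j5, Cyp2u1, Cyp4a32, Cyp4f13 and Cyp4f14. The 4 that rose in both were Cyp1b1, Cyp2c38, Cyp4f16 and Cyp4f18. No member was called in opposite directions, 55 of the 65 had the same sign, and 30 were called in neither genotype. These overlaps were not counted over all genes tested, so they are not shown to be particular to P450 genes. In WT both BDL libraries lay below both controls for 37 of the 65 (background 29.8% of genes) and above them for 12 (31.5%). In the deleted libraries the counts were 39 below (34.3%) and 6 above (31.9%). The 2 BDL comparisons share no libraries. No member was called for the interaction, so a call in 1 genotype alone is not shown to differ from the other. Leaving out single libraries mattered: 12 of the 26 WT calls and 12 of the 28 deleted calls held in all 8 such fits. Without WT control 1, 14 of the WT calls were lost (adjusted p = 0.0601 to 0.184), and without WT control 2, 8 were lost (0.0584 to 0.196). Without WT BDL 1, 5 were lost (0.0579 to 0.125), and without WT BDL 2, 6 were lost (0.0508 to 0.185). Without deleted BDL 1, 14 of the deleted calls were lost (0.0527 to 0.795), and without deleted BDL 2, 6 were lost (0.0526 to 0.113). Without deleted control 1, 13 were lost (0.0543 to 0.162), and without deleted control 2, 7 were lost (0.0631 to 0.11). Leaving out a library of the other genotype cost at most 2 of the WT calls and 4 of the deleted calls. Each of the 24 calls that held in all 8 fits was lower except those of Cyp2a22, Cyp2c38 and Cyp4f18 in WT.

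**Figure D1:**
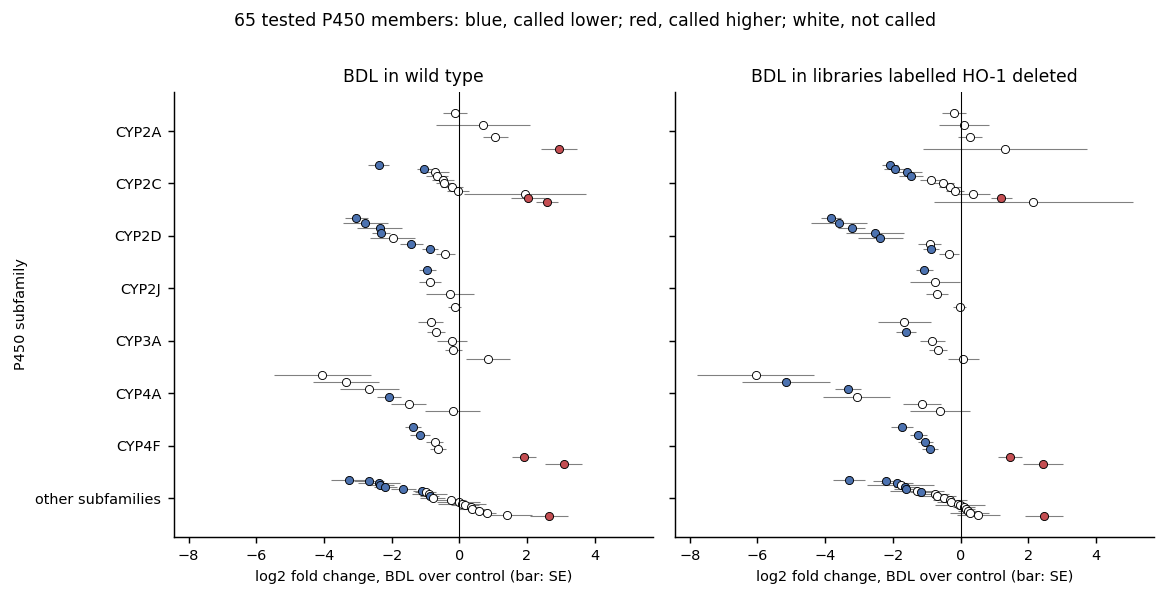
Log2 fold change (BDL over control, horizontal axis) of the 65 tested members by subfamily in WT (left) and in the libraries labelled HO-1 deleted (right), with bars for the SE. Small subfamilies share the row of other subfamilies. CYP2D and CYP4A lie left of 0 throughout, and CYP3A lies near 0 or left of it except for the uncalled Cyp3a44 in WT. The called rises (red) are in CYP2A, CYP2C, CYP4F and, as Cyp1b1, in the row of other subfamilies.

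Summed over all 98 members, P450 RNA was 1.85% and 1.72% of the counts other than RN45S in the WT controls and 1.03% and 0.81% after BDL. In the deleted libraries it was 1.61% and 1.45%, and 0.716% and 0.836% after BDL. All 4 BDL libraries were below all 4 controls. As summed CPM, the members read 10770.4 to 12142 in the WT controls, 4654 to 6297 in WT after ligation, 9700.4 to 10333 in the deleted controls and 4226 to 6025 in the deleted libraries after ligation. The mean was 11456 ± 969 (SD, n = 2) in WT controls and 5476 ± 1162 after BDL, and 10017 ± 447 and 5126 ± 1272 in the deleted libraries. Over the same libraries the summed CPM of the 9 hepatocyte markers was 40742 to 45219.7 in the WT controls, 33637 to 42120.4 in WT after ligation, 39294 to 47955 in the deleted controls and 24915 to 44549 in the deleted libraries after ligation, and its control and BDL ranges overlapped in both genotypes. That sum is led by albumin, which read 20774 and 19143 CPM in the WT controls, 23576 and 19519 after ligation, 19851 and 24949 in the deleted controls and 11590.1 and 25156 after ligation and was not called. The median log2 fold change of the 9 markers was -0.93 in WT and -0.59 in the deleted libraries, beside -0.69 and -0.83 for the P450 members. Of the markers 3 (Serpina1a, Tat and Ttr) were called lower in WT and none in the deleted libraries. The Serpina1a call was lost without WT control 1 (adjusted p = 0.0686), the Ttr call was lost without WT control 1, WT control 2, WT BDL 1 or WT BDL 2 (adjusted p = 0.0968 to 0.165), and the Tat call held in all 8 fits that left out 1 library.

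Markers of other cells moved with ligation too. All 6 cholangiocyte markers rose in both genotypes (medians 3.04 and 3.19), with summed CPM of 23.02 to 34.3 in the WT controls, 201 to 497 in WT after ligation, 24.4 to 31.3 in the deleted controls and 439 to 1137 in the deleted libraries after ligation. Of 6 tested monocyte and macrophage markers 5 rose in both (medians 2.31 and 2.04), with summed CPM of 17.5 to 19.2 in the WT controls, 47.1 to 80.3 in WT after ligation, 11.8 to 12.2 in the deleted controls and 65.96 to 82.4 in the deleted libraries after ligation over 7 markers, of which Ly6c2 was at 0 in deleted BDL 2. The 7 include Lyz2, which carries the LysM-Cre insertion. Lyz2 read 11.6 and 8.04 CPM in the WT controls and 0.128 and 0.212 in the deleted controls. These sums thus do not compare myeloid content between the genotypes. Of 8 Kupffer cell markers 2 rose in WT, and 4 rose and 1 fell in the deleted libraries. None of the cholangiocyte markers was at 0. The part of these cells and of the hepatocyte markers in the P450 values was not tested.

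**Figure D2:**
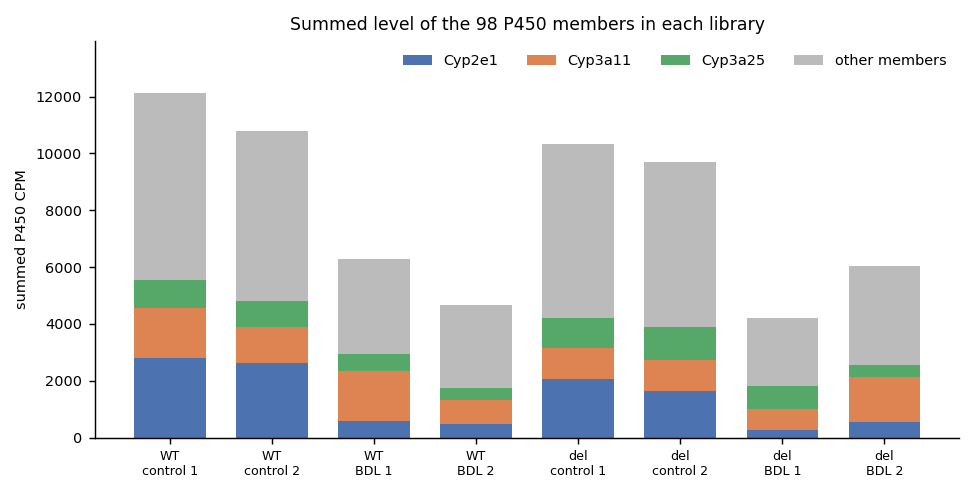
Summed CPM (vertical axis from 0) of the 98 members in each library (del, labelled HO-1 deleted), stacked as Cyp2e1, Cyp3a11, Cyp3a25 and all others. The control libraries sum to 10770.4 to 12142 (WT) and 9700.4 to 10333 (deleted) and the BDL libraries to 4654 to 6297 and 4226 to 6025, with a smaller Cyp2e1 segment in every BDL library.

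The make-up of the pool also differed. Cyp2e1 made up 23.1 to 24.5% of all P450 counts in the WT controls and 17.1 to 20.05% in the deleted controls, and 9.49 to 10.3% and 6.51 to 8.93% after BDL. For Cyp3a11 the shares were 11.8 to 14.4% and 10.6 to 11.2% in the controls and 18.1 to 27.6% and 16.99 to 26.7% after BDL. The order of Cyp2e1 above Cyp3a11 in every control was thus reversed in every BDL library. Per length, the deposited FPKM put Cyp2e1 first among the members in WT controls at 1136 and 1065, before Cyp3a11 (620.4 and 436), Cyp2f2 (362 and 320.1), Cyp2d9 (289.7 and 234) and Cyp3a25 (252 and 240.1). The values of Cyp2d9 and Cyp3a25 overlapped, and the other neighbours in this order did not. By CPM per kb of exon Cyp2e1 was again first, but Cyp3a25 was second and Cyp3a11 stood behind Cyp2f2 in the fourth place, so the order after Cyp2e1 depends on the measure. At the low end, Cyp1b1 was at 0.0348 and 0.0288 FPKM in the same libraries.

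Among the 3 targets of AhR, which senses planar aromatic compounds, Cyp1a2 fell and Cyp1b1 rose in both genotypes, and Cyp1a1 fell in WT. Cyp1a2 (chromosome 9, 57676937 to 57683703, in mm10), which oxidises caffeine and aromatic amines, read 453 and 392 CPM in the WT controls, 107 and 77.2 after ligation, 302 and 253 in the deleted controls and 61.6 and 119 after ligation. The BDL libraries lay far below the controls in both genotypes (-2.19 ± 0.34, adjusted p = 0.00155 in WT; -1.63 ± 0.34, adjusted p = 0.00519 in deleted), and both calls held in all 8 fits that left out 1 library. Cyp1a1, its partner on the same chromosome and an oxidase of polycyclic hydrocarbons, was near the limit of detection at 0.973 and 1.16 CPM in the WT controls, 0.263 and 0.109 after ligation, 0.256 and 0.212 in the deleted controls and 0.0774 and 0 after ligation. It fell in WT (-2.38 ± 0.61, adjusted p = 0.0196), a call that was lost without WT control 1, WT control 2 or WT BDL 2 (adjusted p = 0.0864 to 0.118); in the deleted libraries the value was -1.77 ± 0.99, adjusted p = 0.205. Cyp1b1, an oxidase of estrogens and polycyclic hydrocarbons found mainly outside hepatocytes, read 0.188 and 0.193 CPM in the WT controls, 1.37 and 1.04 after ligation, 0.385 and 0.275 in the deleted controls and 1.32 and 2.66 after ligation and rose in both genotypes (2.65 ± 0.56, adjusted p = 0.00783; 2.46 ± 0.56, adjusted p = 0.00809). Its WT call was lost without WT control 1 or WT control 2 (adjusted p = 0.0599 to 0.0817), and its deleted call was lost without deleted control 2 (adjusted p = 0.0631). Beside it, the summed CPM of 7 stellate cell and fibroblast markers was 248 to 272 in the WT controls, 1227 to 1357 in WT after ligation, 225 to 358 in the deleted controls and 2298 to 3144 in the deleted libraries after ligation, with 4 of 7 higher in each genotype and none at 0, and the part of these cells in the Cyp1b1 result was not tested.

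The 250 bases before the start site were taken from RefSeq (GRCm38.p6), where 76 of the 98 members had an entry. Windows of 2 AhR targets that moved in opposite directions in WT are shown with the core letters of the AhR response element, GCGTG, in capitals (CACGC where the core is on the opposite strand).
Cyp1a1 (chr9:57697543-57697579, plus strand): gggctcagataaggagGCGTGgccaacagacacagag
Cyp1b1 (chr17:79715117-79715153, minus strand): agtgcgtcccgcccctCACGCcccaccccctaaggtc
The core was present on either strand in 17 of 86 member promoters (19.8%) and in 28.2% of the 32851 promoters searched. The promoters searched are not all promoters, since part of the genome was left out. Cyp1a2 held no such letters in this window, which says nothing of AhR binding elsewhere.

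Of 6 targets of CAR and PXR, the receptors for drugs and bile acids, 2 fell and 1 rose in WT and 1 fell in the deleted libraries, with median log2 fold changes of -0.54 and -0.28. Of all genes 6.59% fell and 11.8% rose in WT, and 12.4% fell in the deleted libraries. So few calls are not shown to exceed these shares. Cyp2c29 (chromosome 19, 39269405 to 39330713), an arachidonic acid epoxygenase and by FPKM the most abundant CYP2C in the WT controls, read 498 and 572 CPM in the WT controls, 98.2 and 107 after ligation, 287 and 376 in the deleted controls and 64.3 and 108 after ligation and fell in both (-2.38 ± 0.32, adjusted p = 0.000676; -1.95 ± 0.31, adjusted p = 0.0013), with every BDL library below every control. Both of its calls held in all 8 fits that left out 1 library. Cyp2b10 (chromosome 7, 25897620 to 25926624), the classical CAR target, read 10.4 and 12.3 CPM in the WT controls, 0.585 and 1.91 after ligation, 1.154 and 1.55 in the deleted controls and 1.12 and 2.88 after ligation. Only the WT controls were high: it fell on BDL in WT (-3.26 ± 0.52, adjusted p = 0.0019), a call that held in all 8 such fits, and the value in the deleted libraries was 0.28 ± 0.58, adjusted p = 0.746. Cyp2c55, an oxidase of arachidonic acid, read 0.848 and 0.675 CPM in the WT controls, 1.81 and 4.59 after ligation, 2.44 and 3.03 in the deleted controls and 2.63 and 5.10 after ligation. Its lowest values were again those of the WT controls. It rose in WT (2.03 ± 0.50, adjusted p = 0.0156) but the call was lost without WT control 1, WT control 2 or WT BDL 2 (adjusted p = 0.0844 to 0.102); the deleted value was 0.38 ± 0.49, adjusted p = 0.587.

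Of the 5 tested CYP3A members, which handle many drugs and steroids, none was called in WT and 1 fell in the deleted libraries (12.4% of all genes fell there). Cyp3a11 (chromosome 5, 145854426 to 145879964), the best known PXR target, read 1743 and 1267 CPM in the WT controls, 1738 and 840.2 after ligation, 1098 and 1091 in the deleted controls and 718 and 1609 after ligation, and the groups overlapped (-0.22 ± 0.45, adjusted p = 0.777; 0.09 ± 0.45, adjusted p = 0.905). An SE of 0.45 leaves room for a change of either sign. Cyp3a25 read 1005 and 890.5 CPM in the WT controls, 610.4 and 443 after ligation, 1047 and 1151 in the deleted controls and 823 and 412 after ligation, with the BDL libraries below the controls in both genotypes but no call (-0.85 ± 0.37, adjusted p = 0.135; -0.83 ± 0.37, adjusted p = 0.113). Cyp3a13 read 90.5 and 77.3 CPM in the WT controls, 84.8 and 63.5 after ligation, 125 and 88.2 in the deleted controls and 58.2 and 77.8 after ligation and was not called (-0.18 ± 0.26, adjusted p = 0.693; -0.65 ± 0.27, adjusted p = 0.0874). Cyp3a59 was the CYP3A member that fell, in the deleted libraries alone (-1.61 ± 0.29, adjusted p = 0.00226; WT -0.69 ± 0.28, adjusted p = 0.107). Cyp3a44, which is female-biased, read 0.408 and 0.257 CPM in the WT controls, 0.731 and 0.437 after ligation, 0.94 and 0.487 in the deleted controls and 0.271 and 0 after ligation and was not called. By FPKM its mean in the WT controls was 9.71, so its level is uncertain.

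**Figure D3:**
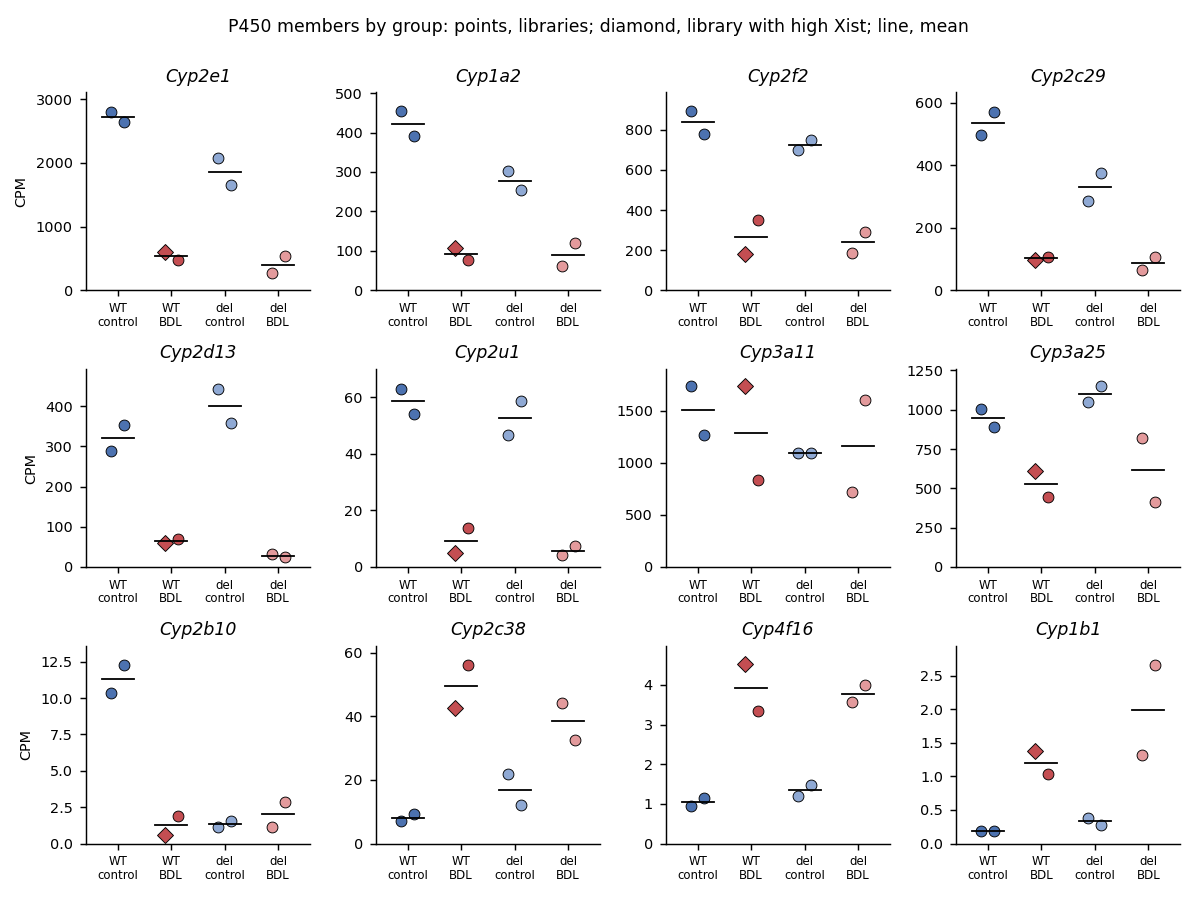
CPM (vertical axes from 0) of 12 members in the 4 groups (del, the libraries labelled HO-1 deleted); points are libraries, lines are means of 2, and the diamond is WT BDL 1, the library with high Xist. Cyp2e1, Cyp1a2, Cyp2f2, Cyp2c29, Cyp2d13 and Cyp2u1 are low in all 4 BDL libraries, Cyp2c38, Cyp4f16 and Cyp1b1 are high in them, Cyp3a11 overlaps, and Cyp2b10 is high in the WT controls alone.

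Cyp2e1 (chromosome 7, 140763739 to 140774987), which oxidises ethanol and acetaminophen around the central vein, read 2804 and 2641 CPM in the WT controls, 598 and 478 after ligation, 2071 and 1656 in the deleted controls and 275 and 538 after ligation. It fell 5.06-fold in WT (-2.34 ± 0.39, adjusted p = 0.0023) and 4.59-fold in the deleted libraries (-2.20 ± 0.39, adjusted p = 0.00234), and both calls held in all 8 fits that left out 1 library. Cyp2f2 (chromosome 7, 27119909 to 27133660), which oxidises naphthalene and in liver lies toward the portal side, read 894 and 780.4 CPM in the WT controls, 183 and 349.9 after ligation, 699 and 748 in the deleted controls and 188 and 289 after ligation. It fell as well (-1.65 ± 0.37, adjusted p = 0.00924; -1.60 ± 0.37, adjusted p = 0.00836). The WT call was lost without WT control 1 or WT BDL 1 (adjusted p = 0.0665 to 0.07) and the deleted call was lost without deleted BDL 1 (adjusted p = 0.054). The falls thus took in a pericentral and a periportal member. Of 10 pericentral genes that are not P450s, 4 fell and 1 rose in WT and 8 fell in the deleted libraries. Glutamine synthetase (Glul) was among those that fell in both (-1.77 ± 0.40, adjusted p = 0.00998; -1.67 ± 0.40, adjusted p = 0.0101). Its WT call was lost without WT control 1 or WT BDL 2 (adjusted p = 0.0594 to 0.094) and its deleted call was lost without deleted BDL 1 (adjusted p = 0.0809). Of 9 tested periportal genes 5 fell in WT and none in the deleted libraries, and none was called for the interaction. Another listed gene, Ass1, had at most 1 count in any library. The summed CPM of the list was 11308 to 11527 in the WT controls and 5114 to 6529 after ligation. In the deleted libraries it was 7541 to 8747 in controls and 6552 to 7671 after ligation. The deleted controls thus already lay below the WT controls, though none of the genes was called between them.

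CYP2D, the drug-oxidising subfamily of the human enzyme CYP2D6, lay below 0 throughout. Of its 8 tested members 6 fell in WT and 6 in the deleted libraries, with medians of -2.14 and -2.45. Cyp2d9 (chromosome 15, 82433437 to 82456845), a male-biased testosterone hydroxylase and by FPKM the most abundant of them in the WT controls, read 675 and 538 CPM in the WT controls, 38.997 and 198 after ligation, 619 and 520.4 in the deleted controls and 73.7 and 147 after ligation. Its fall (-2.36 ± 0.66, adjusted p = 0.0378; -2.37 ± 0.66, adjusted p = 0.0286) rested on single libraries. The WT call was lost without WT control 1, WT control 2, deleted control 1, deleted control 2, deleted BDL 1 or deleted BDL 2 (adjusted p = 0.0583 to 0.184) and the deleted call was lost without WT control 1, WT control 2, deleted control 1, deleted control 2, deleted BDL 1 or deleted BDL 2 (adjusted p = 0.0545 to 0.215). Cyp2d40 read 22.5 and 18.5 CPM in the WT controls, 3.04 and 1.80 after ligation, 19.9 and 15.8 in the deleted controls and 1.43 and 3.10 after ligation, and its fall (-3.05 ± 0.35, adjusted p = 0.000316; -3.22 ± 0.39, adjusted p = 0.0003) held in all 8 fits that left out 1 library in both genotypes.

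Cyp2d13 is listed by RefSeq as a transcribed pseudogene (chromosome 15, 82636750 to 82642045, GRCm38.p6) and read 289 and 352 CPM in the WT controls, 59.7 and 69.5 after ligation, 443 and 357 in the deleted controls and 31.3 and 24.1 after ligation. Its BDL and control libraries were far apart in both genotypes (-2.31 ± 0.28, adjusted p = 0.000402; -3.84 ± 0.30, adjusted p = 3.22e-05), and both calls held in all 8 such fits. Cyp2d11 read 1.38 and 1.48 CPM in the WT controls, 0.0877 and 0.382 after ligation, 2.31 and 1.10 in the deleted controls and 0.116 and 0.222 after ligation and fell in both (-2.78 ± 0.67, adjusted p = 0.0139; -3.58 ± 0.82, adjusted p = 0.00863). Its WT call was lost without WT control 1, WT control 2 or WT BDL 1 (adjusted p = 0.0584 to 0.102), and its deleted call was lost without deleted control 1 or deleted BDL 1 (adjusted p = 0.0543 to 0.168). Cyp2d12 read 0.785 and 0.643 CPM in the WT controls, 0.117 and 0.273 after ligation, 0.684 and 0.487 in the deleted controls and 0.116 and 0 after ligation and fell in the deleted libraries (-2.53 ± 0.87, adjusted p = 0.0486), where its call was lost without WT control 1, WT control 2, deleted control 1, deleted control 2, deleted BDL 1 or deleted BDL 2 (adjusted p = 0.0772 to 0.162). Both are low in counts, yet the FPKM table gives 11.9 and 7.75 for Cyp2d11 and 5.80 and 5.09 for Cyp2d12 in the WT controls, so the levels of both are uncertain. Of the 50-base stretches of the Cyp2d11 transcripts 37.2% also occur in other genes. Cyp2d22 fell in both genotypes (-0.87 ± 0.23, adjusted p = 0.0237; -0.88 ± 0.24, adjusted p = 0.0176) and Cyp2d10 in WT (-1.42 ± 0.34, adjusted p = 0.0132). The WT call of Cyp2d22 was lost without WT control 1, WT control 2 or WT BDL 1 (adjusted p = 0.089 to 0.168), its deleted call was lost without deleted control 1 or deleted BDL 1 (adjusted p = 0.0815 to 0.127), and the call of Cyp2d10 was lost without WT control 1, WT BDL 1 or WT BDL 2 (adjusted p = 0.0508 to 0.114). Cyp2d26 was called in neither genotype (-0.42 ± 0.29, adjusted p = 0.35; -0.34 ± 0.29, adjusted p = 0.397).

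CYP2C members oxidise arachidonic acid, retinoids and drugs, and they went both ways. Of the 11 tested, 2 rose and 2 fell in WT, and 1 rose and 4 fell in the deleted libraries. Of all genes 11.8% rose and 6.59% fell in WT, and 15.1% rose and 12.4% fell in the deleted libraries. Cyp2c38 (chromosome 19, 39389556 to 39463075) read 7.002 and 9.36 CPM in the WT controls, 42.7 and 56.2 after ligation, 21.8 and 11.96 in the deleted controls and 44.2 and 32.6 after ligation and rose in both (2.60 ± 0.32, adjusted p = 0.000417; 1.20 ± 0.31, adjusted p = 0.0136). Its WT call held in all 8 fits that left out 1 library, while its deleted call was lost without deleted control 2 or deleted BDL 1 (adjusted p = 0.105 to 0.11). Cyp2c38 and Cyp2c29 lie on chromosome 19 within the same cluster, and their levels thus parted after BDL. Cyp2c67 read 53.9 and 49.1 CPM in the WT controls, 26.5 and 23.8 after ligation, 48.3 and 58.1 in the deleted controls and 10.6 and 15.1 after ligation and fell in both (-1.03 ± 0.23, adjusted p = 0.00865; -2.08 ± 0.24, adjusted p = 0.000221), with 52.8% of its 50-base transcript stretches shared with other genes; its WT call was lost without WT control 1 (adjusted p = 0.0789). Cyp2c37 and Cyp2c54 fell in the deleted libraries (-1.47 ± 0.35, adjusted p = 0.0105; -1.58 ± 0.45, adjusted p = 0.0289). The call of Cyp2c37 was lost without deleted control 1 or deleted BDL 1 (adjusted p = 0.0689 to 0.12) and that of Cyp2c54 was lost without WT control 1, WT control 2, deleted control 1, deleted control 2, deleted BDL 1 or deleted BDL 2 (adjusted p = 0.0513 to 0.224). Cyp2c70, which makes the muricholic acids of mice, read 443 and 232 CPM in the WT controls, 193 and 236 after ligation, 192 and 231 in the deleted controls and 129 and 169 after ligation and was not called (-0.65 ± 0.33, adjusted p = 0.194; -0.51 ± 0.33, adjusted p = 0.266). Cyp2c23, Cyp2c50 and Cyp2c68 were not called in either genotype either, with log2 fold changes of -0.87 to -0.16.

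Several CYP2C and CYP3A promoters share a 9-letter run, CAAAGTCCA, known as a site that favours HNF4A. It was 1 of 9 motifs searched on both strands, of which 7 were added after the data had been seen. It was found in 10 of 86 member promoters (11.6%) and in 126 of the 32851 searched (0.384%). These 4 windows are shown because their genes differed in calls, with the run in capitals. The genes were not tested against each other.
Cyp2c67 (chr19:39649143-39649183, minus strand): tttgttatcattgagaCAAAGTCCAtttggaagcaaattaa
Cyp2c68 (chr19:39741154-39741194, minus strand): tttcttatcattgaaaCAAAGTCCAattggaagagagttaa
Cyp2c70 (chr19:40187326-40187366, minus strand): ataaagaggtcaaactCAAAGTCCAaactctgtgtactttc
Cyp3a11 (chr5:145879939-145879979, minus strand): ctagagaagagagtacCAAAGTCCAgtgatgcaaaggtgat
Of these genes Cyp2c67 fell in both genotypes and the other 3 were called in neither. Cyp2c67 and Cyp2c68 share long stretches of transcript with Cyp2c40, so the matches are not independent. The TATA letters TATAAA were in 33.7% of member promoters against 12.4% of those searched, TTGCNNAA (a C/EBP site) in 23.3% against 9.56%, and TTCNNNGAA (a STAT5 site) in 5.81% against 7.02%.

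In CYP2A the most abundant member in the WT controls by FPKM was Cyp2a12, a steroid hydroxylase that read 276 and 253 CPM in the WT controls, 304 and 178 after ligation, 459 and 352 in the deleted controls and 257 and 458 after ligation and was not called (-0.13 ± 0.35, adjusted p = 0.831; -0.19 ± 0.35, adjusted p = 0.722). Cyp2a22 read 0.471 and 0.193 CPM in the WT controls, 3.36 and 1.75 after ligation, 0.299 and 0.254 in the deleted controls and 0.309 and 0.222 after ligation. It rose in WT (2.94 ± 0.55, adjusted p = 0.00373), where the call held in all 8 fits that left out 1 library, but on the FPKM scale the WT value was -0.085, and 20.2% of its transcript stretches are shared with Cyp2a12. Cyp2a5, the coumarin hydroxylase, read 119 and 165 CPM in the WT controls, 372 and 223 after ligation, 443 and 251 in the deleted controls and 362 and 477 after ligation and was lowest in the WT controls (1.07 ± 0.36, adjusted p = 0.0633; 0.27 ± 0.36, adjusted p = 0.6; neither called).

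Cyp2a4 and Cyp2c39 differed widely between the libraries of 1 group. Cyp2a4, a female-biased steroid hydroxylase, read 27.1 and 34.99 CPM in the WT controls, 97.6 and 2.95 after ligation, 0.47 and 0.275 in the deleted controls and 0.812 and 1.11 after ligation. Cyp2c39, which hydroxylates retinoic acid, read 18.4 and 17.8 CPM in the WT controls, 138 and 0.983 after ligation, 0.214 and 0.339 in the deleted controls and 1.16 and 1.77 after ligation. Both were highest in WT BDL 1, the library with high Xist, followed by the WT controls, and both were under 1.8 CPM in all 4 deleted libraries and under 3 CPM in WT BDL 2. In the fit of all 8 libraries neither gene was called between the genotypes (Cyp2a4 -6.45 ± 1.95, adjusted p = 0.625 in controls; Cyp2c39 -5.94 ± 2.46, adjusted p = 0.759, edgeR). The WT BDL libraries are not part of the control comparison, and leaving out WT BDL 1 or WT BDL 2 hardly moved its values. They were -6.46 for Cyp2a4 and -5.94 for Cyp2c39 in each of these fits. Both genes were called there, because the spread between the 2 WT BDL libraries no longer fed the dispersion. Such calls are thus no added evidence of a difference between the controls. In WT the BDL change itself turned with the library left out. For Cyp2a4 it was -3.40 without WT BDL 1 and 1.66 without WT BDL 2, and for Cyp2c39 -4.21 and 2.93 (log2).

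Cyp2a4 and Cyp2a5 are close copies, and their upstream sequences are printed because the 2 genes nevertheless gave different patterns over these libraries. Each line gives the 250 bases before the RefSeq start (GRCm38.p6), with capitals at the bases that differ.
Cyp2a4 (chr7:26306942-26307191, plus strand): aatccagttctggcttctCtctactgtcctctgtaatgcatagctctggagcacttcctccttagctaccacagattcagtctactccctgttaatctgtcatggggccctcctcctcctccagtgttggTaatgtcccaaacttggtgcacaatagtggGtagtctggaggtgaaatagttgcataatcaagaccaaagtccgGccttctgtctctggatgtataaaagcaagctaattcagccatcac
Cyp2a5 (chr7:26835089-26835338, plus strand): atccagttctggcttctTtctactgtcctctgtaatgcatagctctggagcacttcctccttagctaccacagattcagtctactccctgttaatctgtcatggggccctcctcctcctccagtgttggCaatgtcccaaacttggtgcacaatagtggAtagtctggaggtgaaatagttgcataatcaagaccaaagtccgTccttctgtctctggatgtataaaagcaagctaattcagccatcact
Over 249 aligned bases 4 differed (98.4% identical). Of the 50-base stretches of the Cyp2a4 transcripts 38.0% also occur in other genes, mostly in Cyp2a5. The FPKM table gives Cyp2a4 at 8.77 and 7.52 in the deleted controls, where the counts put it under 0.5 CPM, so its level there is uncertain. For Cyp2c39, FPKM and counts both put WT BDL 1 first and the WT controls next: 7.33 and 7.60 FPKM in the WT controls, 39.6 and 0.338 after ligation, 0.128 and 0.196 in the deleted controls and 0.437 and 0.248 after ligation.

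Of 11 members known to be female-biased in mouse liver, 4 were tested (Cyp2a4, Cyp3a44, Cyp17a1 and Cyp39a1, of which Cyp39a1 fell in WT) and 7 were too low in counts. WT BDL 1 had the highest count of all libraries for Cyp2c40 (40 of 66 counts in all), Cyp2c69 (18), Cyp3a16 (17) and Cyp3a41a (37), against 0 to 12 in each other library. Its counts of Cyp2b9 and Cyp2b13 were 0, and Cyp2b9 was highest in deleted BDL 1 (48 counts). Cyp3a41b had 0 counts throughout. Most of these share long stretches with other genes (98.6% for Cyp3a41a), so their counts are uncertain. Cyp17a1, a steroid hydroxylase, read 7.10 and 4.89 CPM in the WT controls, 2.31 and 4.26 after ligation, 9.40 and 2.82 in the deleted controls and 3.13 and 4.65 after ligation and was not called.

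Of the 3 male-biased members, 1 fell in WT and 2 in the deleted libraries. Cyp4a12a (chromosome 4, 115299046 to 115332815), the male-biased arachidonic acid hydroxylase and the most abundant CYP4A by FPKM in the WT controls, read 249.7 and 181 CPM in the WT controls, 2.69 and 23.8 after ligation, 49.1 and 184 in the deleted controls and 0.619 and 4.65 after ligation. Every BDL library was below every control, but edgeR did not call it (-4.05 ± 1.42, adjusted p = 0.127 in WT, and -6.05 ± 1.74, adjusted p = 0.0601 in deleted). DESeq2 called it lower in WT (adjusted p = 0.0197) and in deleted (adjusted p = 0.000632). So did limma on log2(FPKM + 1) (adjusted p = 4.54e-13 in WT and 6.37e-11 in deleted). The limma fit moves each variance toward a trend over all genes. With 2 libraries per group, so small a p does not measure the spread of the gene's own libraries. Cyp4a12b read 46.6 and 32.1 CPM in the WT controls, 0.731 and 7.43 after ligation, 15.2 and 24.1 in the deleted controls and 0.464 and 0.886 after ligation and fell in the deleted libraries (-5.15 ± 1.29, adjusted p = 0.0346; WT -3.35 ± 0.97, adjusted p = 0.0692). That call was lost without WT control 1, WT control 2, deleted control 1, deleted control 2, deleted BDL 1 or deleted BDL 2 (adjusted p = 0.0774 to 0.246). In WT, Cyp4a12b was called lower by DESeq2 (adjusted p = 0.0151) and by limma on log2(FPKM + 1) (adjusted p = 1.23e-11). Cyp4a12a and Cyp4a12b share 48.9% and 49.4% of their stretches, all with each other. WT BDL 1, with high Xist, was the lower of the WT BDL libraries for Cyp2d9, Cyp4a12a and Cyp4a12b. The part of sex in the male- and female-biased values was not tested, since only 1 library differed.

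**Figure D4:**
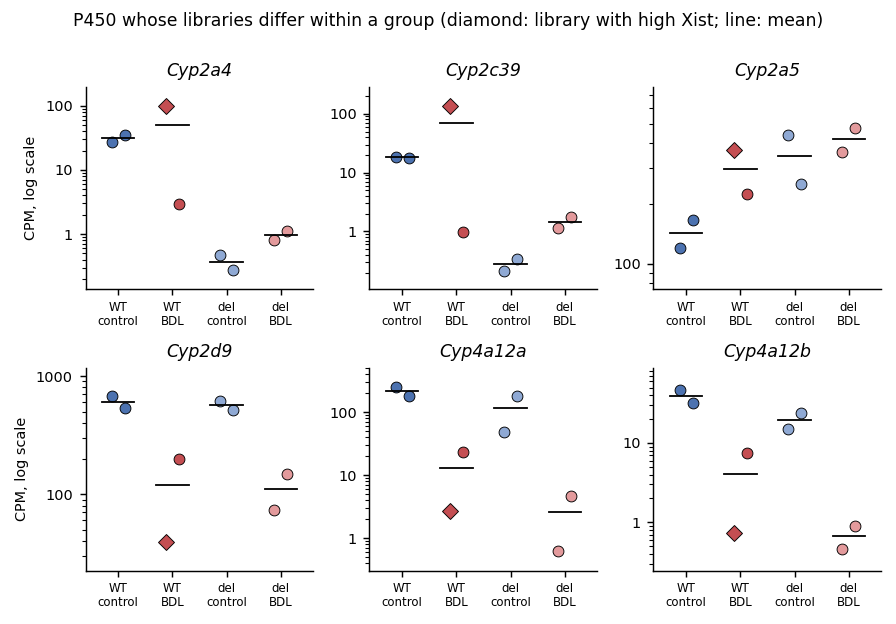
CPM on log axes of 6 members in the 4 groups (del, the libraries labelled HO-1 deleted); points are libraries, lines are means of 2 libraries and the diamond is WT BDL 1, the library with high Xist. The diamond is the highest point for Cyp2a4 and Cyp2c39 and the lower WT BDL point for Cyp2d9, Cyp4a12a and Cyp4a12b, and the deleted libraries are low for Cyp2a4 and Cyp2c39 in both conditions. The level of Cyp2a4 in the deleted controls is uncertain, since counts and FPKM differed there.

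Of the 4 omega-hydroxylases on the PPARA list, which oxidise the far end of fatty acids, 1 fell in each genotype. Of all genes 6.59% fell in WT and 12.4% in the deleted libraries. Cyp4a32 read 14.2 and 16.9 CPM in the WT controls, 2.66 and 4.86 after ligation, 56.5 and 29.5 in the deleted controls and 3.83 and 5.10 after ligation and fell in both (-2.07 ± 0.36, adjusted p = 0.00284; -3.33 ± 0.39, adjusted p = 0.000272), and both calls held in all 8 fits that left out 1 library. Cyp4a10 read 45.9 and 39.3 CPM in the WT controls, 11.6 and 1.47 after ligation, 15.003 and 27.2 in the deleted controls and 1.97 and 3.77 after ligation. Each BDL library was below the controls, but edgeR did not call it (-2.66 ± 0.86, adjusted p = 0.0935 in WT, and -3.07 ± 0.9996, adjusted p = 0.0711 in deleted). DESeq2 called it lower in both genotypes (adjusted p = 0.0368 and 0.0201), as did limma on log2(FPKM + 1) (adjusted p = 9.8e-07 and 0.00363). The limit on limma p given for Cyp4a12a holds here too. Cyp4a14 read 19.9 and 34.3 CPM in the WT controls, 40.5 and 6.498 after ligation, 6.97 and 13.5 in the deleted controls and 6.62 and 7.09 after ligation, and its WT groups overlapped (-0.19 ± 0.81, adjusted p = 0.901; -0.60 ± 0.89, adjusted p = 0.653). Cyp4a31 read 4.90 and 4.44 CPM in the WT controls, 2.48 and 0.655 after ligation, 3.93 and 3.75 in the deleted controls and 1.20 and 2.88 after ligation. It was not called by edgeR (-1.50 ± 0.51, adjusted p = 0.0623 in WT, and -1.14 ± 0.57, adjusted p = 0.154 in deleted). In WT alone it was called lower by DESeq2 (adjusted p = 0.0294) and by limma on log2(FPKM + 1) (adjusted p = 0.0141). The gene of PPARA itself read 222 and 202 CPM in the WT controls, 87.4 and 60.2 after ligation, 253 and 172 in the deleted controls and 57.6 and 74.2 after ligation and fell in both (-1.52 ± 0.29, adjusted p = 0.00437; -1.69 ± 0.29, adjusted p = 0.00195).

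CYP4F enzymes hydroxylate leukotrienes and other eicosanoids, and they divided. Of 6 tested, 2 rose in both genotypes, 2 fell in WT and 4 fell in the deleted libraries. Cyp4f16 read 0.942 and 1.16 CPM in the WT controls, 4.53 and 3.33 after ligation, 1.20 and 1.48 in the deleted controls and 3.56 and 3.99 after ligation, with no overlap (1.91 ± 0.35, adjusted p = 0.00364; 1.46 ± 0.36, adjusted p = 0.0122). Its WT call was lost without WT control 1 (adjusted p = 0.0601) and its deleted call was lost without deleted control 1 or deleted BDL 1 (adjusted p = 0.0527 to 0.0922). Cyp4f18, known from neutrophils, read 0.377 and 0.418 CPM in the WT controls, 3.57 and 3.22 after ligation, 0.256 and 0.36 in the deleted controls and 2.40 and 0.443 after ligation and was called higher in both (3.08 ± 0.54, adjusted p = 0.00282; 2.44 ± 0.58, adjusted p = 0.00993). Deleted BDL 2, with 2 counts, hardly exceeded the controls, and the deleted call was lost without deleted control 1 or deleted BDL 1 (adjusted p = 0.0706 to 0.795). Beside it, the summed CPM of 6 neutrophil markers was 5.34 to 7.07 in the WT controls, 21.2 to 31.3 in WT after ligation, 8.08 to 8.21 in the deleted controls and 29.02 to 39.7 in the deleted libraries after ligation, with 4 of 5 tested higher in each genotype and Cxcr2 at 0 in at least 1 library; their part in the result was not tested. Cyp4f15, the most abundant CYP4F by FPKM in the WT controls, read 107 and 129 CPM in the WT controls, 65.7 and 76.6 after ligation, 142 and 117 in the deleted controls and 78.4 and 60.3 after ligation and fell in the deleted libraries (-0.90 ± 0.24, adjusted p = 0.0188; WT -0.73 ± 0.24, adjusted p = 0.0558), where the call was lost without deleted control 1 or deleted BDL 2 (adjusted p = 0.0716 to 0.132). Cyp4f13 and Cyp4f14 fell in both genotypes and Cyp4f17 in the deleted libraries, with called values of -1.73 to -1.04. The WT call of Cyp4f14 was lost without WT control 1 or WT BDL 2 (adjusted p = 0.114 to 0.175) and the deleted call of Cyp4f13 was lost without deleted control 1 or deleted BDL 1 (adjusted p = 0.0656 to 0.0739).

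Of the 12 tested members on the fatty acid and eicosanoid list, which holds the CYP4F genes too, 5 fell and 2 rose in WT and 7 fell and 2 rose in the deleted libraries. Cyp2u1 (chromosome 3, 131288441 to 131303227), a hydroxylase of long-chain fatty acids, read 63.1 and 54.3 CPM in the WT controls, 4.91 and 13.8 after ligation, 46.8 and 58.6 in the deleted controls and 4.26 and 7.31 after ligation and fell 6.36-fold and 9.80-fold (-2.67 ± 0.43, adjusted p = 0.00279; -3.29 ± 0.47, adjusted p = 0.00113), and both calls held in all 8 fits that left out 1 library. Cyp2j5, an arachidonic acid epoxygenase, read 362 and 353 CPM in the WT controls, 196 and 174 after ligation, 335 and 349.7 in the deleted controls and 157 and 169 after ligation. It fell less (-0.95 ± 0.25, adjusted p = 0.0207; -1.07 ± 0.25, adjusted p = 0.00915), and its WT call was lost without WT control 1, WT control 2, WT BDL 1 or WT BDL 2 (adjusted p = 0.0615 to 0.136). Cyp2j6 lay at 35.98 to 44.998 CPM in the 8 libraries (-0.14 ± 0.20, adjusted p = 0.673; -0.03 ± 0.20, adjusted p = 0.932). Cyp2j8 and Cyp2j9 were not called. Cyp4v3 fell in the deleted libraries (-1.16 ± 0.33, adjusted p = 0.0214; WT -0.999 ± 0.32, adjusted p = 0.051), a call that was lost without deleted control 1, deleted control 2 or deleted BDL 1 (adjusted p = 0.0561 to 0.105). Cyp4b1 fell in WT (-1.11 ± 0.26, adjusted p = 0.0113; deleted -0.49 ± 0.27, adjusted p = 0.193), a call that was lost without WT control 1 (adjusted p = 0.128).

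Few P450s of retinoid, sterol, vitamin D and steroid hormone pathways were called. They were Cyp39a1 in WT and Cyp2r1 in the deleted libraries, where 18.4% and 27.5% of all genes were called. None of the 3 retinoic acid hydroxylases was called; Cyp26a1 had log2 fold changes of 0.57 ± 0.31 in WT and 0.10 ± 0.32 in deleted. Cyp26b1 read 9.67 and 10.4 CPM in the WT controls, 18.6 and 7.48 after ligation, 12.2 and 7.32 in the deleted controls and 7.16 and 9.08 after ligation, with overlapping groups (0.39 ± 0.38, adjusted p = 0.536; -0.29 ± 0.41, adjusted p = 0.625). Cyp51, the lanosterol demethylase of cholesterol synthesis, read 64.7 and 50.4 CPM in the WT controls, 115 and 86.5 after ligation, 72.1 and 89.7 in the deleted controls and 60.5 and 93.7 after ligation and was not called (0.81 ± 0.27, adjusted p = 0.062; -0.08 ± 0.27, adjusted p = 0.856). Cyp39a1, an oxysterol hydroxylase, read 14.3 and 15.3 CPM in the WT controls, 9.24 and 6.83 after ligation, 11.3 and 7.03 in the deleted controls and 10.99 and 9.97 after ligation. It fell in WT (-0.87 ± 0.28, adjusted p = 0.0469; deleted 0.21 ± 0.28, adjusted p = 0.611), a call that was lost without WT control 1, WT control 2, WT BDL 2, deleted BDL 1 or deleted BDL 2 (adjusted p = 0.0522 to 0.196). Cyp2r1, a vitamin D hydroxylase, read 2.57 and 2.06 CPM in the WT controls, 2.51 and 2.73 after ligation, 5.60 and 2.43 in the deleted controls and 1.16 and 0.886 after ligation. It fell in the deleted libraries (-1.87 ± 0.48, adjusted p = 0.0138; WT 0.17 ± 0.41, adjusted p = 0.811), a call that was lost without deleted control 1, deleted BDL 1 or deleted BDL 2 (adjusted p = 0.0526 to 0.131). Cyp27b1, the next enzyme of vitamin D activation, had 0 to 8 counts per library and was not tested. Of the members listed as known also outside hepatocytes, Cyp20a1 read 7.03 and 6.59 CPM in the WT controls, 9.79 and 7.37 after ligation, 6.63 and 5.86 in the deleted controls and 6.38 and 7.75 after ligation, with no call. Cyp2s1 read 0.408 and 0.482 CPM in the WT controls, 0.438 and 0.437 after ligation, 0.299 and 0.699 in the deleted controls and 0.967 and 0.222 after ligation, with no call either. Cyp21a1, Cyp26c1, Cyp2g1 and Cyp46a1 were also called in neither genotype.

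Between the genotypes 1 P450 call was made. In controls 1 of 65 tested members was called lower and 0 higher (background 0.191% of genes, 0.113% lower and 0.0778% higher). Both deleted controls lay above both WT controls for 19 members (background 23.4%) and below them for 22 (21.4%). The called member was Cyp2b10, which had the lower level in the deleted controls (-3.04 ± 0.50, adjusted p = 0.0392). That call was lost without any 1 of the 4 control libraries (adjusted p = 0.144 to 0.345). An unadjusted p under 0.05 was found for 13 members (20%, against 6.84% of all genes). DESeq2, which tested 73 members, called 2 higher and 2 lower. Without WT BDL 1 or WT BDL 2, neither of which is in this comparison, Cyp2a4 and Cyp2c39 had values of -6.46 and -5.94. Both were also called lower there, as the spread of those 2 libraries no longer fed the dispersion. After BDL edgeR called 0 of 65 (background 0.0636%, with 0.0141% higher and 0.0495% lower), the deleted libraries lay above the WT ones for 4 members (background 17.8%) and below them for 13 (20.5%), and 7 had an unadjusted p under 0.05 (10.8%, against 11.8% of all genes). DESeq2 called 4 lower. Without WT BDL 1 edgeR called 1 lower, and without WT BDL 2 it called 3 lower. The 3 with the smallest p did not pass: Cyp2a22 (-3.13 ± 0.65, adjusted p = 0.145), Cyp2d13 (-1.21 ± 0.27, adjusted p = 0.189) and Cyp2c67 (-1.004 ± 0.24, adjusted p = 0.207). All 3 were lower in both deleted BDL libraries than in both WT BDL libraries.

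The interaction asks whether BDL changed a gene differently in the 2 genotypes. None of the 65 members passed with edgeR (background 0.00707%), and 13 had an unadjusted p under 0.05 (20%, against 9.30% of all genes). DESeq2 called 2. The 3 with the smallest p were Cyp2b10 (3.54 ± 0.77, adjusted p = 0.342), Cyp2d13 (-1.52 ± 0.38, adjusted p = 0.35) and Cyp2r1 (-2.04 ± 0.63, adjusted p = 0.385). The 2 that DESeq2 called were Cyp2b10 (3.63, adjusted p = 0.00508) and Cyp2d13 (-1.50, adjusted p = 0.0264). Without WT BDL 1, edgeR called Cyp2a4, Cyp2c39 and Cyp4a12b for the interaction, and without WT BDL 2 it called Cyp2b10 (0.0465; adjusted p of the 3 without WT BDL 1 = 0.000725 to 0.0376).

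The partners and regulators of P450 were counted from lists in the same way. Of 7 electron donor genes, 1 fell in WT, the mitochondrial ferredoxin Fdx1 (-0.99 ± 0.29, adjusted p = 0.0337; it was lost without WT control 1, WT control 2 or WT BDL 1 (adjusted p = 0.107 to 0.161)), and 1 rose in the deleted libraries, the reductase Por, which read 266 and 252 CPM in the WT controls, 383 and 324 after ligation, 245 and 125 in the deleted controls and 459 and 556 after ligation (1.46 ± 0.34, adjusted p = 0.00879; WT 0.45 ± 0.33, adjusted p = 0.384). The Por call was lost without deleted control 2 (adjusted p = 0.0739). Of 12 genes of heme synthesis and breakdown, 5 fell and 1 rose in WT and 4 fell and 1 rose in the deleted libraries. The gene that rose was Hmox1 in both (1.87 ± 0.24, adjusted p = 0.000577; 1.67 ± 0.24, adjusted p = 0.000634). Alas1, the rate-limiting enzyme of heme synthesis, read 755 and 468 CPM in the WT controls, 196 and 325 after ligation, 649 and 611 in the deleted controls and 255 and 249.7 after ligation and fell in both (-1.23 ± 0.34, adjusted p = 0.0262; -1.32 ± 0.34, adjusted p = 0.0145), as did Cpox. The WT call of Alas1 was lost without WT control 1 or WT BDL 1 (adjusted p = 0.166 to 0.259) and its deleted call was lost without deleted control 1 or deleted BDL 1 (adjusted p = 0.0553 to 0.0716). The WT call of Cpox was lost without WT control 1, WT BDL 1 or WT BDL 2 (adjusted p = 0.0504 to 0.155) and its deleted call was lost without deleted control 1, deleted control 2 or deleted BDL 1 (adjusted p = 0.0708 to 0.154). Of 22 regulators of P450 genes 7 fell and 1 rose in each genotype. Ppara, Nr1h4 (the bile acid receptor FXR), Ghr (the growth hormone receptor) and Bcl6 (a growth hormone-regulated repressor) fell in both. The calls of Ppara held in all 8 fits that left out 1 library in both genotypes and those of Nr1h4 and Ghr in the deleted libraries. The WT call of Bcl6 was lost without WT control 2, WT BDL 1, WT BDL 2, deleted control 1, deleted control 2, deleted BDL 1 or deleted BDL 2 (adjusted p = 0.0595 to 0.565), and its deleted call was lost without deleted BDL 1 (adjusted p = 0.0866). The WT call of Nr1h4 was lost without WT control 1, WT BDL 1 or WT BDL 2 (adjusted p = 0.0627 to 0.3), and that of Ghr was lost without WT control 1, WT control 2, WT BDL 1 or WT BDL 2 (adjusted p = 0.0507 to 0.201). Nr1i3, which encodes CAR, fell in the deleted libraries (-1.65 ± 0.38, adjusted p = 0.00986; WT -0.49 ± 0.37, adjusted p = 0.411), a call that was lost without deleted control 1 or deleted BDL 2 (adjusted p = 0.0751 to 0.0968). Cux2, a female-biased regulator, rose there (4.31 ± 0.76, adjusted p = 0.00449; WT 1.58 ± 0.72, adjusted p = 0.168), a call that was lost without deleted control 1 (adjusted p = 0.0556). Nfe2l2, which encodes the stress regulator NRF2, rose in WT (1.37 ± 0.22, adjusted p = 0.00186), where the call held in all 8 such fits.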

How the data were processed

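RNA from mouse liver was sequenced in 8 libraries, 2 in each of 4 groups. Per the labels' protocols, RNA was purified on Qiagen columns, depleted of ribosomal RNA and made into strand-specific KAPA libraries. STAR 2.7.3a, the build mm10 and Cufflinks are listed in the submitters' processing notes without their roles. The gene counts, for 24982 genes, were used as deposited. There was also a Cufflinks table, whose unit is not stated. Its values are not whole numbers and were read as FPKM computed by the authors. The strand used in counting and the annotation release are not given in the sources used here, so antisense reads may be included.

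Genes were kept with filterByExpr (14147), scaled by TMM and fitted with the quasi-likelihood model of edgeR 4.0.16 (R 4.3.3, robust dispersion, 4 group means, 4 residual degrees of freedom, common biological coefficient of variation 23.0%). The SE is the log2 fold change divided by the square root of F. FPKM served for levels per length and, as log2(FPKM + 1) with a mean over 0.1, for an alternative fit with limma 3.58.1. Variances in that fit were moved toward a robust trend over all genes, so its p do not measure the spread of a single gene. DESeq2 1.42.0 was another alternative. Libraries of a group correlated at r = 0.969 to 0.99 over genes (log2 CPM) and had different counts at 16524 to 17113 genes. Depth limits the low members: deleted BDL 2 held 4.51 M effective counts, so a member at a few counts there is imprecise. Positions are from GENCODE vM21 (mm10), promoters from RefSeq (Biopython 1.88). The members, gene lists, tests and most alternatives were chosen with earlier results of these data known. Values in every library are given for the members with the largest called changes (up to 8 in each direction and comparison, or the 3 with the smallest p where none passed), for the most abundant member of each subfamily of 3 or more, and for members on the AhR, CAR and PXR, PPARA, sex-biased and non-hepatocyte lists. Other settings are listed in the closing section.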

Additional observations from a re-analysis of the deposited data

How the results depend on the processing

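Both BDL comparisons kept more lower than higher members in each setting. Counts of higher and lower members in this section are over those of the 73 members with at least 20 counts that the setting tested. Some of them can thus be members outside the 65. With RLE size factors, RN45S removed or total-count scaling, the counts of called members stayed within 1.5 times of those reported. Leaving out 1 library at a time gave 3 to 12 higher and 9 to 23 lower members for BDL in WT, 1 to 7 and 13 to 27 in the deleted libraries, 0 to 0 and 0 to 3 between genotypes in controls, 0 to 0 and 0 to 3 after BDL, and 0 to 2 and 0 to 1 for the interaction. In those fits the lone library of a group is assumed to vary like the others. With no filter on low counts 10 members were higher after BDL in WT, 4 were higher between genotypes in controls, 1 was higher and 3 were lower between genotypes after BDL, and 1 was higher and 1 lower for the interaction. Between the genotypes DESeq2 called 2 higher and 2 lower in controls and 4 lower after BDL, and for the interaction 1 higher and 1 lower. For BDL in WT it kept 25 of the 26 calls and added 9. The added ones were Cyp2a5, Cyp3a25, Cyp4a10, Cyp4a12a, Cyp4a12b, Cyp4a31, Cyp4f15, Cyp4v3 and Cyp51. For BDL in deleted it kept 27 of the 28 calls and added 5, which were Cyp2c50, Cyp2d10, Cyp3a25, Cyp4a10 and Cyp4a12a. On log2(FPKM + 1) with limma, BDL in WT had 2 higher and 18 lower members (against 6 and 20), BDL in deleted had 0 higher and 14 lower (against 4 and 24), and controls had 2 lower between genotypes; there Cyp2a22 turned to -0.085 (adjusted p = 0.933) after BDL in WT, and the cause was not tested. The median of all genes was -0.24 for BDL in WT and -0.42 for the genotypes in controls on that scale, and 0.13 for BDL in WT with total-count scaling, where members had a median of -0.60. Without both WT BDL 1 and deleted BDL 2, a setting added after seeing the data, 32 members were lower after BDL in WT, 1 was higher and 3 were lower in controls, 1 was higher and 2 were lower after BDL, and 2 were higher for the interaction; the cause was not tested. No paired analysis was possible because the labels give no replicate numbers that link libraries across groups. Depth limits members at a few counts in deleted BDL 2.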
